A study of Mus musculus with 46 samples.

Results

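The liver of castrated males was compared with that of sham-operated males at 18 months of age, gene by gene. The 10929 genes described are those with a mean of at least 1 expression unit in either group, of 18531 genes in the 18-month table. The lowest larger mean inside this limit was 1.0, for the histone gene H4c2, and the highest outside it was 0.998. Each gene's difference is that of log2(mean + 1), castrated minus sham males, with the difference of the median gene (0.12) subtracted, so that 0 marks the median gene and 1 a 2-fold difference for genes well above 1.

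All mice were wild-type C57BL/6, fed normal chow and operated on at 8 weeks of age, so the castrated males had lived without testes from that age. The groups used are liver of 5 castrated and 3 sham males at 18 months for the comparison itself, and liver of 3 sham females of that age, liver of the same 3 groups at 12 weeks (6 castrated males, 3 sham males, 3 sham females) and 18-month kidney (5 castrated, 3 sham males) for values set beside it. Whether each library came from a separate animal is not stated in the labels, so p-values measure the spread between libraries. The files give 1 mean per group and no value per library, so the depth and the overlap of single libraries are unknown. The error behind a difference is therefore taken from the authors' deposited table of DESeq2 tests. It is the implied standard error, which is the authors' log2 fold over the normal deviate that its p-value stands for, and its median over the 10929 genes was 0.25 on the log2 scale. The unit of the 18-month means is not named, so levels of single genes are not ranked against each other, and sums over genes count each gene as the deposited unit weighs it.

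The mouse liver is one of the most sexually dimorphic organs. Male and female mice secrete growth hormone in different temporal patterns, pulsatile in males and nearly continuous in females, and hepatocytes read this pattern through the growth hormone receptor, JAK2 and the transcription factor STAT5B. Testicular androgen sets the male pattern, and many cytochromes P450, sulfotransferases, transporters and urinary proteins are made mainly by 1 sex. The purpose stated for the series was to study how castration relates to sex differences in healthy ageing.

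In the authors' deposited table (DESeq2, adjusted p under 0.05), 163 of the 10929 genes rose after castration and 149 fell. These are 1.49% and 1.36% of the genes, or 2.85% together. Of the 163 rises, 54 had a sham male mean under 1, and of the 149 falls, 39 had a castrated mean under 1. Those genes passed the limit through 1 group alone. Sulfotransferases and cytochromes P450 known from female liver led the rises, and the major urinary proteins (Mup), known from male liver, led the falls. Most of the transcriptome lay near the median gene, with 89.2% of genes within 0.5 of it. By size alone, 191 genes were higher by 2-fold on mean + 1 and 123 were lower, and the table called 109 and 98 of them.

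**Figure D1:**
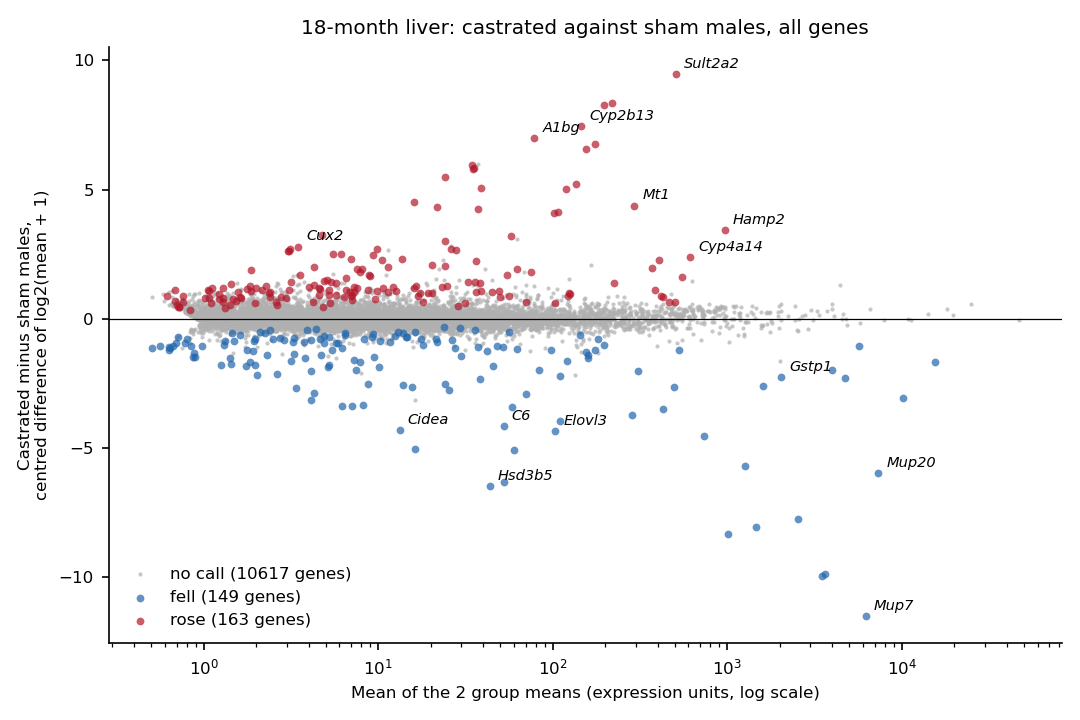
Centred difference of log2(mean + 1), castrated minus sham males, against the average of both group means (log axis), for 10929 genes of 18-month liver. Red points are the 163 genes that rose and blue points the 149 that fell in the authors' test; the lowest blue point is Mup7 and the highest red point is Sult2a2.

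The Mup genes encode lipocalins that males excrete in urine as pheromone carriers. Of 20 Mup genes in the comparison, 17 fell and 0 rose, all 20 lying on mm10 chromosome 4 between 59964294 and 62150863. Their means summed to 103649 expression units in sham males and 13940 in castrated males, with 7195 in females. This was 13.5%, 1.82% and 1.02% of the sum over all genes in each group. Castrated males thus had a small part of the male Mup total and still more of it than females.

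Members differed widely in how far they fell. Mup7 had a mean of 12404 in sham males and 3.63 in castrated males, for which the authors' deposited table gives a log2 fold of -11.83 (implied standard error 1.07, DESeq2 adjusted p = 2.16e-25). Mup11 went from 6978 to 6.76, and Mup14 from 7252 to 7.35. Mup20, which encodes darcin, a male pheromone attractive to females, went from 14460.3 to 250.1. These 4 genes lost nearly all of their message. Mup22 kept more, with 23013 in sham and 7906 in castrated males, and so did Mup3, with 7712 and 1716. Mup10 was not called, with means of 613 in sham and 832 in castrated males and 318 in females (DESeq2 adjusted p = 0.91). Mup18 (216 and 51.3) and Mup13 (1.57 and 0.852) were not called either. Transcripts of the 17 Mup genes that fell were 84.6% to 99.6% identical to their nearest copy, median 99.4%, so values of single members depend on how reads shared between copies were assigned.

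**Figure D2:**
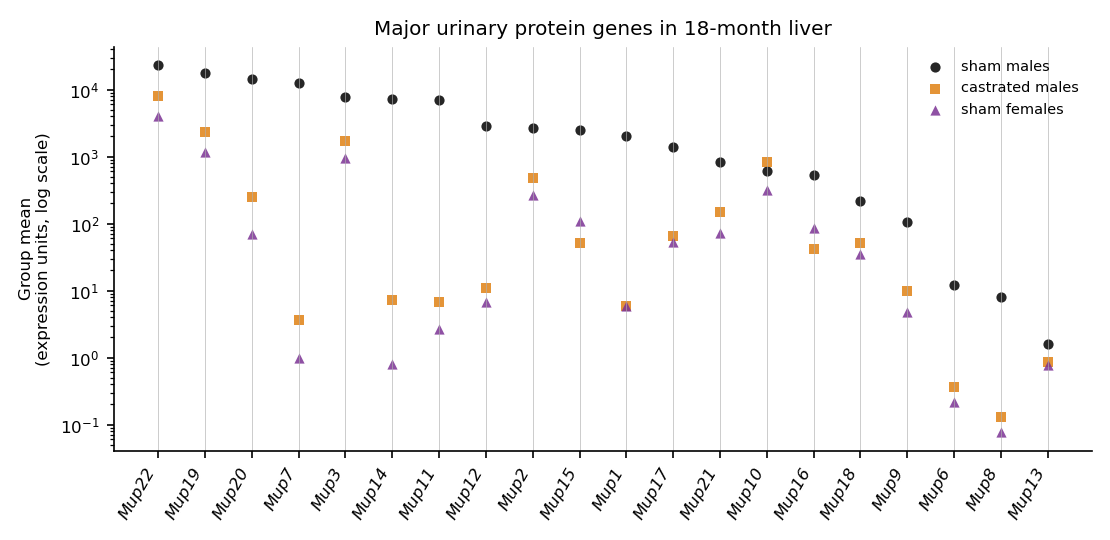
Group means (log axis, expression units) of the 20 Mup genes in 18-month liver, in order of the sham male mean. Castrated males (squares) lie between sham males (circles) and females (triangles) for most members, while Mup10 is the member with a castrated mean (832) above the sham mean (613).

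The promoters of Mup11 and Mup14 show how alike these genes are outside their transcripts too. The 250 bases before the RefSeq start of each (build GRCm38.p6, chr4:60662396-60662645 and chr4:61303999-61304248, minus strand) start at different points of the shared sequence, and 220 of the 236 positions where they overlap are identical (93.2%). They are printed 5′ to 3′ to show this near identity.
Mup11: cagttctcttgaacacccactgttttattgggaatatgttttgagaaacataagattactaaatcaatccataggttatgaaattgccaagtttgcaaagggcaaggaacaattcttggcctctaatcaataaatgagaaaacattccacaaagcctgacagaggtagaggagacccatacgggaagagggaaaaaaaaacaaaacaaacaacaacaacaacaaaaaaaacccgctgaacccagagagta
Mup14: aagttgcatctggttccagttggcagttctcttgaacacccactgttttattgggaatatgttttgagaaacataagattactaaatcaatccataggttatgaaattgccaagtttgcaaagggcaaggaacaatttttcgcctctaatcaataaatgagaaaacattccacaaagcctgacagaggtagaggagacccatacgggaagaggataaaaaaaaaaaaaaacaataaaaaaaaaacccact
Mup15 and Mup17 were identical at 247 of 251 overlapping positions (98.4%), and went from 2469 to 51.2 and from 1410.1 to 65.7 expression units. The windows of Mup7 and Mup14 overlap over 167 positions, of which 164 are identical (98.2%).

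Other male-biased genes fell with the Mup genes. Of 26 members of a list of male-biased liver genes with a mean of at least 1, 24 fell and 0 rose, with a median of -3.21 against 0 for all genes and 2.85% called overall. The list was written with results of these data known, so its direction is no independent evidence. Serpina1e, a serpin of the alpha-1 antitrypsin family, went from 5057 to 24.9, with 47.6 in females. Hsd3b5, a male-specific 3-ketosteroid reductase of liver, went from 87.0 to 0.082, a 1061-fold lower mean. Slco1a1, a transporter that takes up organic anions and bile acids, went from 105 to 0.458. In females Hsd3b5 had 0.0667 and Slco1a1 0.12, and none of the 3 was called between castrated males and females.

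The fatty acid hydroxylase Cyp4a12a, which converts arachidonic acid to 20-HETE, was lowered less far. Its mean went from 116 to 2.80, and it was 0.0367 in females. The log2 fold of castrated males over females was 6.84 in the authors' deposited table (DESeq2 adjusted p = 0.00593). Its copy Cyp4a12b went from 32.5 to 0.102. Elovl3, which elongates very long chain fatty acids, went from 197 to 9.64 (log2 fold -4.48, implied standard error 0.9996, DESeq2 adjusted p = 6.56e-04). Cyp2d9, a testosterone hydroxylase, went from 782 to 74.4, and Selenbp2, which binds selenium, from 206 to 13.4. Egfr, the receptor for epidermal growth factor, went from 63.9 to 13.2. Only Bcl6, a repressor of female-biased genes, and Gna14, a G protein subunit, were not called among the 26, with means of 10.2 and 7.55 and of 1.36 and 0.87.

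Female-biased genes made up the other side. Of 41 members with a mean of at least 1, 35 rose and 0 fell, with a median of 2.63. The same caution on the choice of the list applies. Members such as Cyp3a41a, A1bg and Cux2 also reached the limit through the castrated mean alone, so the count and median are partly set by it. Sult1e1, at 0.287 in sham and 0.356 in castrated males with 6.74 in females, was left out by the limit. Sulfotransferases led. Sult2a2, which sulfates bile acids and hydroxysteroids, had a mean of 0.313 in sham males against 1015 in castrated males, and 1499.9 in females. Its log2 fold in the authors' deposited table was 11.57 (implied standard error 0.59, DESeq2 adjusted p = 1.16e-82). Sult2a1 went from 0.17 to 394, with 1207 in females. Sult2a5 went from 0.0367 to 68.9, and Sult2a3 from the table's floor of 0.01 to 48.3. Whether the floor stands for 0 is not stated. Of 8 Sult2a genes listed, 6 had a mean of at least 1, all on chromosome 7, 13623967 to 14494230. Sult2a1, Sult2a2, Sult2a3 and Sult2a5 reached that limit through the castrated mean alone. Sult2a7 also rose, so that 5 of the 6 did. The sixth, Sult2a8, had means of 515 in sham and 274 in castrated males, with 169.96 in females, and was not called (DESeq2 adjusted p = 0.090). The castrated male thus gained message of 5 of these 6 genes, while Sult2a8, already present in sham males, had a lower mean. Of the Sult3a genes on chromosome 10, Sult3a1 went from 0.147 to 70.8 and Sult3a2 also rose.

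Cytochromes P450 of the Cyp2a, Cyp2b, Cyp2c and Cyp3a subfamilies rose. Cyp2b13 went from 0.527 to 290.4, above the female mean of 182 but without a call between those groups (DESeq2 adjusted p = 0.44). Cyp2b9 went from 9.88 to 205 and Cyp2b10, the classical target of the xenobiotic receptor CAR, from 1.94 to 16.6. Of 5 Cyp2b genes listed, these 3 had a mean of at least 1, Cyp2b13 through the castrated mean alone, and all 3 rose. Of 13 Cyp2c genes with a mean of at least 1, 6 rose, Cyp2c69 from 1.95 to 346 and Cyp2c40 from 5.57 to 265. Cyp2a4, a steroid 15-alpha hydroxylase, went from 1.98 to 309.9, and females had 1047. Of 8 Cyp3a genes with a mean of at least 1, 4 rose, each reaching that limit through the castrated mean alone. All 4 had castrated means below the female means, with 1 called lower than in females. Cyp3a41a went from 0.227 to 438, which was 26.4% of the female mean, and Cyp3a41b from 0.297 to 31.7, which was 10.1%. Cyp3a16 reached 9.46 and Cyp3a44 6.06, which were 5.67% and 5.34% of the female means. For Cyp3a44 the authors' deposited table calls castrated males lower than females (log2 fold -4.20, DESeq2 adjusted p = 0.00273). Cyp3a41a, Cyp3a41b and Cyp3a16 were not called between those groups (0.42, 0.23 and 0.061). Transcripts of the called Cyp3a genes were 92.2% to 99.9% identical to their nearest copy, so single members are uncertain here as well. The same holds for the called Cyp2a genes (96% to 98.3%) and Cyp2c genes (93.7% to 98%). It also holds for Cyp4a12a and Cyp4a12b (98.2%) and for Serpina1e (96.0%) above. The called Sult2a genes were 69.8% to 94.6% identical to their nearest copy and the called Cyp2b genes 86.6% to 90.4%. Values of single Sult2a and Cyp2b members thus also depend in part on how shared reads were assigned.

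Cyp2c40 and Cyp2c69 lie beside each other on chromosome 19 and both rose. Their promoters (250 bases before the RefSeq start, GRCm38.p6, chr19:39812815-39813064 and chr19:39886770-39887019, minus strand) overlap over 220 positions, of which 217 are identical (98.6%), and are printed to show what the pair shares.
Cyp2c40: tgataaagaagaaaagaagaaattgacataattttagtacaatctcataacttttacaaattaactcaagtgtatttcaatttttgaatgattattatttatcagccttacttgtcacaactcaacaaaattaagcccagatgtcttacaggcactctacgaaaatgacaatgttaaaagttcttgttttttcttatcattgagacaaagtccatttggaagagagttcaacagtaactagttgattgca
Cyp2c69: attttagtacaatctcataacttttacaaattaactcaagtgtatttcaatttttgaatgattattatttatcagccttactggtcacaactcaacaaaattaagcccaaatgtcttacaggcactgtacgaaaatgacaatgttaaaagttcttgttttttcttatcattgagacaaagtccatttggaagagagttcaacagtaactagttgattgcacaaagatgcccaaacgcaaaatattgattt
The promoters of Cyp3a41a and Cyp3a41b shared 249 of 250 bases (99.6%), while their castrated means were 26.4% and 10.1% of the female means.

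Further female-biased genes rose that serve other steps of metabolism. A1bg, a plasma glycoprotein, went from 0.123 to 157. Slc22a26, an organic anion transporter, went from 1.11 to 76.1, and its neighbour Slc22a27 from 4.11 to 44.5. Hao2, a peroxisomal hydroxyacid oxidase, went from 0.997 to 42.4. The first 3 were below their female means, 562 for A1bg, 99.6 for Slc22a26 and 46.3 for Slc22a27, while Hao2 had 37.95 in females. The Slc22a27 transcript is 94.0% identical to that of Slc22a29, so its values depend on how shared reads were assigned. Members not called included the fatty acid receptor Cd36, with 40.4 and 92.2, and the steroid hydroxylase Cyp17a1, with 17.4 and 35.7 (DESeq2 adjusted p = 0.28 and 0.62).

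**Figure D3:**
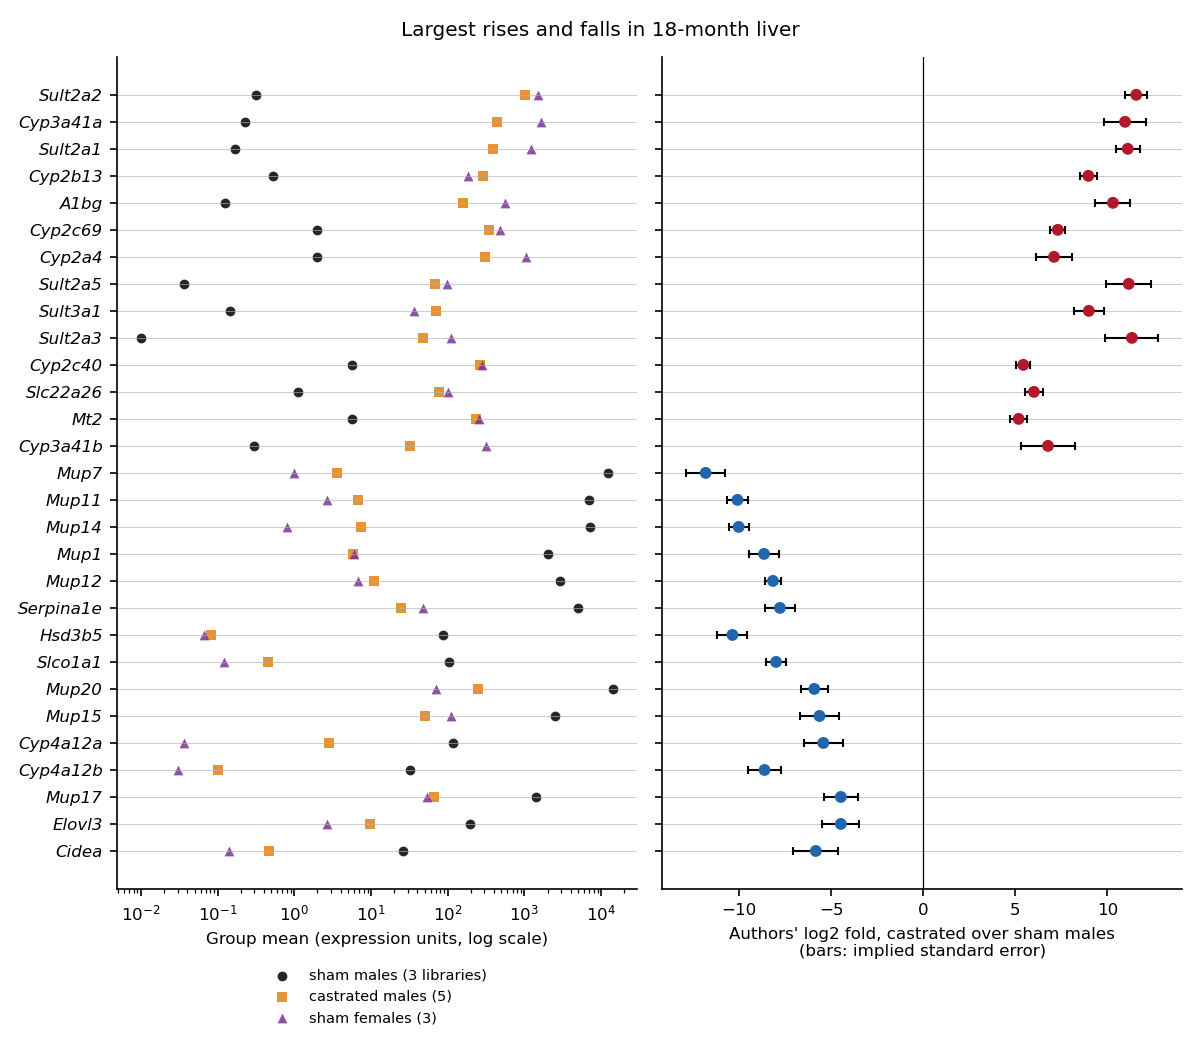
Left, group means (log axis, expression units) of 14 of the 15 largest rises and the 15 largest falls in 18-month liver for sham males, castrated males and sham females. Right, the authors' log2 fold, castrated over sham males, with bars of 1 implied standard error. All 29 lie at least 4 such errors from 0. Sult2a3 is at the floor of 0.01 in sham males, so the size of its fold is uncertain.

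The promoters of the named genes were searched for TTCNNNGAA, the palindrome to which STAT dimers bind and which reads the same on both strands. Of the 30 named genes, 20 had a RefSeq promoter, and 3 of those held the motif in the 250 bases before the start, namely A1bg, Sult3a1 and Slc22a26. For 14 of the 20, the 50 bases after the RefSeq start lie in a GENCODE transcript of the gene. A1bg is not among these, and its window lies inside the GENCODE gene. Sult3a1 (chr10:33857472-33857721, plus strand) and Slc22a26 (chr19:7802668-7802917, minus strand) are printed with the match in capitals.
Sult3a1: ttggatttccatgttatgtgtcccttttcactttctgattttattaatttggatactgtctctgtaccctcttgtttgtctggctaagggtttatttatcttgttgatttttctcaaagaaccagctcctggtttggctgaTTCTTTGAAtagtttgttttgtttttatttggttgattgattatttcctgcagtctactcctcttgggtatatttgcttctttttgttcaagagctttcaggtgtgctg
Slc22a26: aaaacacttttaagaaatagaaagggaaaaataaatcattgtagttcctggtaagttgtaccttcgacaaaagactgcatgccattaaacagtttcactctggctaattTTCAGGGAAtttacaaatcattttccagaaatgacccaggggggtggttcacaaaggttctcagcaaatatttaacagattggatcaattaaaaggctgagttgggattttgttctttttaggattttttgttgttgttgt
Over all genes that rose, 8 of 113 promoters (7.08%) held the motif, and over those that fell 5 of 110 (4.55%). Among all 27025 RefSeq promoters 7.18% did, and 6.02% of the 8809 promoters of genes with a mean of at least 1. The palindromic steroid response element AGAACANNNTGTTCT, to which glucocorticoid and androgen receptors can bind, was in 0 promoters of either called set. It was in 1 of the 27025, so it is too rare for these counts to show a difference. A match in this window is a description of letters and not a binding site.

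Of 16 genes of the growth hormone pathway itself, 3 rose and 0 fell, which is 18.8% called against 2.85% of all genes, with a median of 0.24. Socs2, a feedback inhibitor that growth hormone induces, went from 2.35 to 12.8, with 8.18 in females. Prlr, the prolactin receptor, went from 23.6 to 86.5, with 99.5 in females. Socs3, a related inhibitor that interleukin 6 also induces, went from 1.72 to 4.21 (DESeq2 adjusted p = 0.0365). The receptor gene Ghr was at 234 and 220 and was not called, nor was the hormone gene Igf1, at 66.2 and 98.4, or the inhibitor Cish, at 2.32 and 7.14.

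Among 17 regulators of liver dimorphism, 3 rose and 0 fell (17.6% called), with a median of 0.03. Cux2, a homeobox repressor made in female liver, went from 0.0467 to 6.92, against 9.79 in females. Trim24 went from 5.73 to 15.7 and Tox, a high mobility group box protein, from 1.44 to 4.73. All 3 castrated means lay between 70.6% and 118% of the female means. The nuclear repressors Bcl6 (above) and Zhx2 (4.31 and 3.67) were not called. Of 12 steroid receptor and glucocorticoid response genes, 1 rose, the metallothionein Mt2. The estrogen receptor Esr1 was at 3.37 and 5.56 and the glucocorticoid target Fkbp5 at 12.0 and 29.6, neither of them called.

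Metallothioneins bind zinc and copper. Mt2 went from 5.62 to 234 (log2 fold 5.18, implied standard error 0.45, DESeq2 adjusted p = 3.54e-28) and Mt1, its neighbour on chromosome 8, from 23.9 to 563. Females had 254 and 508, and neither gene was called between castrated males and females. Of 22 metal and iron handling genes 4 rose and 0 fell, with a median of 0.25. The other 2 were Hamp2, a hepcidin gene, from 149 to 1783 with 2883 in females, and the zinc importer Slc39a4, from 12.6 to 33.7. The hepcidin Hamp had means of 2404 and 6453 and was not called (DESeq2 adjusted p = 0.29).

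Enzymes that convert steroids moved in both directions. Of 18 members 1 rose and 4 fell, with a median of -0.01. Beside Sult2a1 and Hsd3b5, Cyp7b1, an oxysterol and steroid hydroxylase, went from 123 to 16.8, and Srd5a1, which reduces testosterone to dihydrotestosterone, from 43.1 to 16.7. Hsd3b2 went from 23.9 to 12.4 (DESeq2 adjusted p = 0.046). Of 22 bile acid genes 2 rose and 2 fell. The transporters Slco1a4 and Abcc4 rose, from 13.3 to 36.2 and from 0.577 to 2.56, while Slco1a1 and Cyp7b1 fell. Of 32 genes of drug metabolism 2 rose (Cyp2b10 and Cyp2c37) and 2 fell (Ugt2b35 and Ces2a), with a median of 0.08.

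Genes of fat oxidation and storage included some that exceeded both sham groups. Of 30 genes that oxidize fatty acids or are targets of the fatty acid sensor PPAR alpha, 6 rose and 0 fell, with a median of 0.37. The omega-hydroxylases Cyp4a14 and Cyp4a10 went from 182 to 1048 and from 142 to 602, against 318 and 280 in females. In the authors' deposited table both were also higher in castrated males than in females (log2 fold 1.76 and 1.16, DESeq2 adjusted p = 2.10e-06 and 1.12e-04). The acyl-CoA thioesterases Acot2, Acot3 and Acot4 and the mitochondrial carrier Ucp2 completed the 6, with Acot3 at 9.62 and 106. Other targets of the receptor were not called, such as the peroxisomal enzyme gene Ehhadh, at 165 and 231.

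Lipid droplet genes split. Of 22 members 4 rose and 1 fell, with a median of 0.11. G0s2, an inhibitor of the lipase ATGL, went from 128 to 681, with 170 in females (castrated over female log2 fold 1.99, DESeq2 adjusted p = 0.046). The droplet coat protein gene Plin4 went from 8.30 to 40.3, with 7.28 in females (log2 fold 2.49, DESeq2 adjusted p = 0.00157). Plin5 and the lipoprotein receptor Vldlr also rose. Cidea, which enlarges lipid droplets, went the other way, from 26.03 to 0.474 (log2 fold -5.84, implied standard error 1.23, DESeq2 adjusted p = 2.14e-04). In the same livers the 22 genes of fatty acid and triglyceride synthesis had a median of -0.43, with 1 called, the transcription factor Srebf1, which fell from 132 to 62.5. The desaturase Scd1, at 2948 and 1049, and the synthase Fasn, at 255 and 110, were not called, with implied standard errors of 0.76 and 0.47. Of 24 cholesterol genes 0 were called, with a median of -0.29, and 21 of the 24 lay below the median gene.

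Several parts of the membrane attack complex, the pore that complement forms, were lower after castration. Of 30 complement and coagulation genes 5 fell and 1 rose, with a median of -0.11. C6 went from 99.4 to 5.14 (log2 fold -4.41, implied standard error 0.35, DESeq2 adjusted p = 1.56e-33), with 4.18 in females. C8a went from 231 to 86.6, C8b from 131 to 35.7 and C9 from 227 to 92.2. The fifth was Cfd, complement factor D or adipsin, from 24.1 to 3.59, which was 0.09 in females. Hc, which encodes complement C5, is not among the 30 and also fell (log2 fold -0.67, implied standard error 0.20, DESeq2 adjusted p = 0.046). The mannose-binding lectin Mbl2 rose from 369 to 634 (DESeq2 adjusted p = 0.049).

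Of 25 acute phase genes 6 rose and 0 fell, with a median of 0.58. Lcn2, which binds bacterial siderophores, went from 6.32 to 49.6, the glycoprotein Orm3 from 2.66 to 18.4 and the hepatokine Fgl1 from 256 to 848. Il1rn, Lbp and Socs3 were the others. The serum amyloids Saa1 (57.5 and 272) and Saa2 (28.3 and 109.5) had 4.73-fold and 3.87-fold higher castrated means without a call (DESeq2 adjusted p = 0.22 and 0.057), and Orm2 went uncalled at 11.4 and 114. Of 22 interferon response genes 0 were called, with a median of 0.03.

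Markers of other liver cells were counted in the same way. In bulk tissue, more cells of a type and more RNA per cell cannot be told apart. Of 17 antigen presentation genes 1 rose, H2-Ab1, from 17.9 to 53.6 (DESeq2 adjusted p = 0.047), and its partner H2-Aa was at 21.6 and 68.2 (0.051). Females had 125 and 161. Of 21 macrophage markers 2 rose, Spp1 and Ccr2, and the whole list of 24 summed to 264 in sham and 401 in castrated males, with 924 in females. The Kupffer cell receptor Clec4f was at 15.4 and 25.9. Of 6 T and NK cell markers with a mean of at least 1, 2 rose, Ccl5 from 2.65 to 13.1 and Cd3g from 0.22 to 1.91, and the 18 markers in the table summed to 6.85, 28.3 and 51.8. Cd3g reached the limit through the castrated mean alone, so this count is partly set by the limit. The defining markers Cd3e (0.173 and 0.656) and Cd8a (0.09 and 0.704) stayed below 1. Of 8 B and plasma cell markers 0 were called, with a median of 0.9996, and the B cell receptor subunit Cd79a was at 1.37 and 5.49. The part of immune cells in the acute phase and antigen presentation values was not tested.

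Of 15 endothelial and 21 collagen and stellate cell genes 0 were called, with medians of 0.03 and 0.13, and of 16 hepatocyte markers 1 fell, the serpin Serpina1c, from 7512 to 3903. Albumin (Alb) was at 45204 and 48362. Of 21 pancreas, fat and kidney markers 3 had a mean of at least 1, and 2 of these fell, with a median of -1.97 over the 3. They were Cfd (above) and Cela1, a pancreatic elastase, from 12.2 to 2.69, while the kidney gene Kap was at 0.753 and 3.02 and was not called. The acinar genes Prss2, Cpa1 and Pnlip were at the table's floor in both groups and the adipocyte genes Adipoq and Lep were at 0.01 in sham males. Of 8 bile duct markers with a mean of at least 1, 2 rose and 1 fell (37.5% called), with a median of 0.13. Prom1, the stem cell surface protein CD133, went from 0.283 to 2.57 (DESeq2 adjusted p = 3.04e-05) and Spp1, also counted among the macrophage markers, from 37.2 to 75.3. Cdh1, which encodes E-cadherin of periportal hepatocytes and bile ducts, fell from 5.18 to 1.16. The keratin gene Krt19 (1.45 and 2.18) and Epcam (1.05 and 1.45) were not called.

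The lists of other functions are read against the 2.85% called among all genes. Of 25 glucose genes 1 fell, the phosphofructokinase regulator Pfkfb3, from 8.49 to 1.84, and of 32 amino acid and urea cycle genes 0 were called, with medians of -0.19 and -0.12. Of 20 endoplasmic reticulum stress genes 1 fell, the asparagine synthetase Asns, from 2.69 to 0.184, and of 25 glutathione and NRF2 genes 2 fell and 1 rose (12.0%). Gstp1, a glutathione transferase, went from 3327 to 758 and its copy Gstp2 from 41.2 to 7.08, while the quinone reductase Nqo1 rose from 4.10 to 10.4. Transcripts of Gstp1 and Gstp2 were 94.4% identical, so both values depend on how shared reads were assigned. Of 18 immediate early and stress genes 1 rose, the growth arrest gene Gadd45b, from 0.833 to 10.2, and the list's median was 0.45. Of 15 senescence genes 1 rose, the cell cycle inhibitor Cdkn2c, from 1.83 to 6.19, and of 11 cell cycle genes 0 were called. Of 9 fetal liver and tumour genes 3 rose and 1 fell (44.4%). The surface protein gene Ly6d went from 1.48 to 12.5 and the laminin gene Lamb3 from 1.31 to 3.47, and Abcc4 (above) was the third, while the trefoil peptide Tff3 went from 8.25 to 0.376. Of 9 erythroid and blood markers 1 fell (11.1%), Alas2, the erythroid enzyme of heme synthesis, from 70.1 to 20.8, while the globin Hbb-bs was at 326 and 504. Of 7 neutrophil markers 1 rose (14.3%), Lcn2 (above), of 16 cytokines 1 rose, Ccl5 (above), and of 22 zonation markers 1 fell, Cdh1. Of 18 clock genes, 16 heat shock genes, 24 oxidative phosphorylation genes and 27 ribosomal protein genes 0 were called in each, with medians between -0.12 and 0.18. The Y-linked gene Ddx3y was at 14.2 and 14.4 in the male groups and at the floor in females, as the labels give the sexes.

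**Figure D4:**
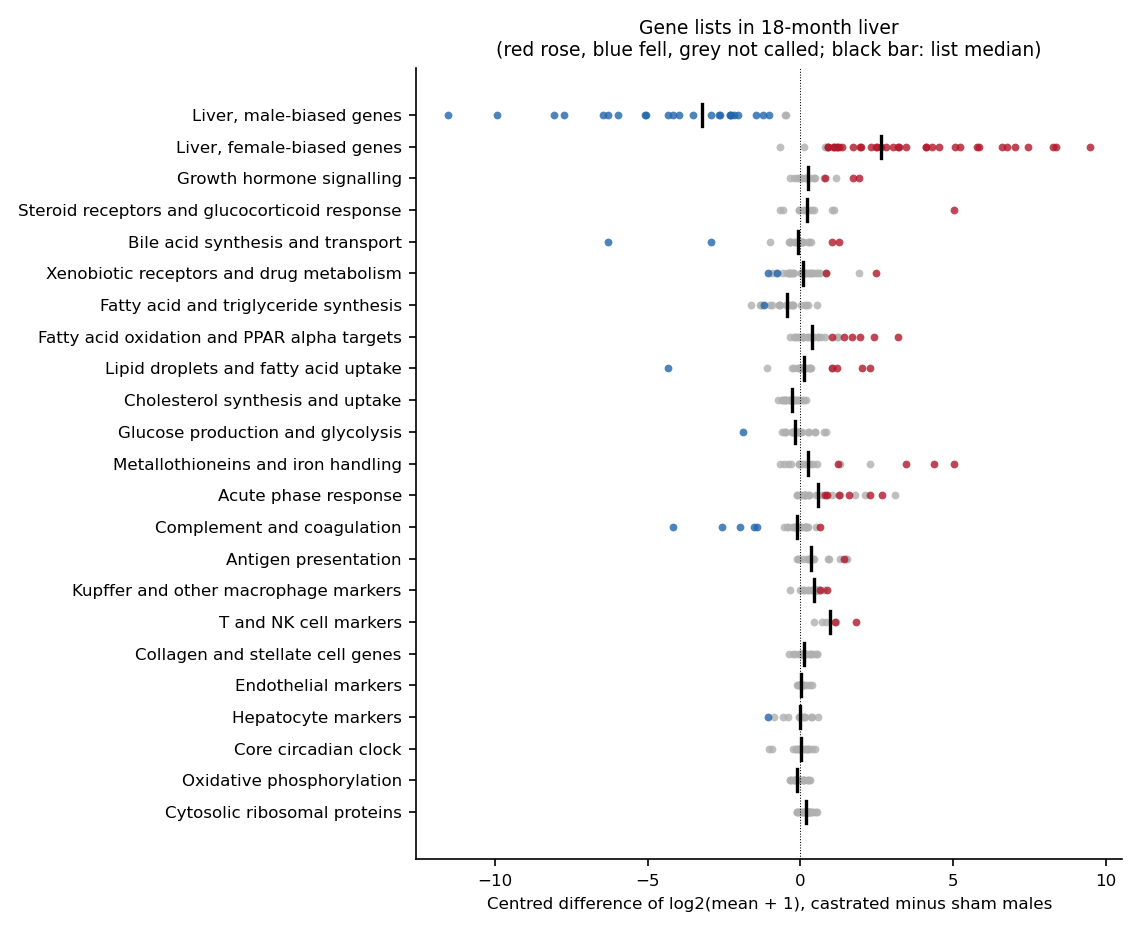
Centred difference of each member with a mean of at least 1, for selected gene lists in 18-month liver; red points rose, blue points fell, grey points were not called, and the black bar is the list's median. The male-biased and female-biased lists stand at -3.21 and 2.63, and the medians of the other lists shown lie between -0.43 and 0.98.

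The genes called at 18 months were then read in 12-week liver, 4 weeks after surgery, where the means are FPKM from separate processing and nothing was tested between ages. Of the 150 genes that rose and are in the 12-week table, 131 had a higher castrated mean there too, against 46.5% of all genes, and 62 by at least 2-fold on mean + 1, against 2.21%. Of the 138 that fell, 126 were lower, against 53.2%, and 70 by at least 2-fold, against 2.71%. Most of the 18-month calls thus had the same direction 4 weeks after surgery. The authors' deposited 12-week table lists 1 comparison per gene. Of the 96 rises and 86 falls listed there for castration, 76 and 70 had the same sign with an adjusted p under 0.05. The share with such a p among all genes listed there for castration was not counted, so these counts have no background and are not read as a result.

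Several of the strongest 18-month rises were nonetheless near 0 in young castrated males. Sult2a2 had a castrated mean of 0.329 FPKM at 12 weeks, when females had 305, and so stood at 0.108% of the female mean, against 67.7% at 18 months. Sult2a1 stood at 0.0533% at 12 weeks and 32.7% at 18 months, and Cyp3a41a at 0.0897% and 26.4%. Sult2a5 stood at 0.335% and 71.4%. All 4 were far higher in females than in sham males at both ages. The Sult2a1 and Sult2a5 transcripts are 94.6% identical and that of Cyp3a41a is 99.9% identical to its nearest copy. Single values of these 3 genes thus depend on how shared reads were assigned. For other genes the castrated mean was a large part of the female mean at both ages. Slc22a26 stood at 100.4% and 76.5%, Mt2 at 72.4% and 92.1% and Cyp2c40 at 56.6% and 93.6%. Sham males had under 4 FPKM of each of these 7 genes at 12 weeks.

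**Figure D5:**
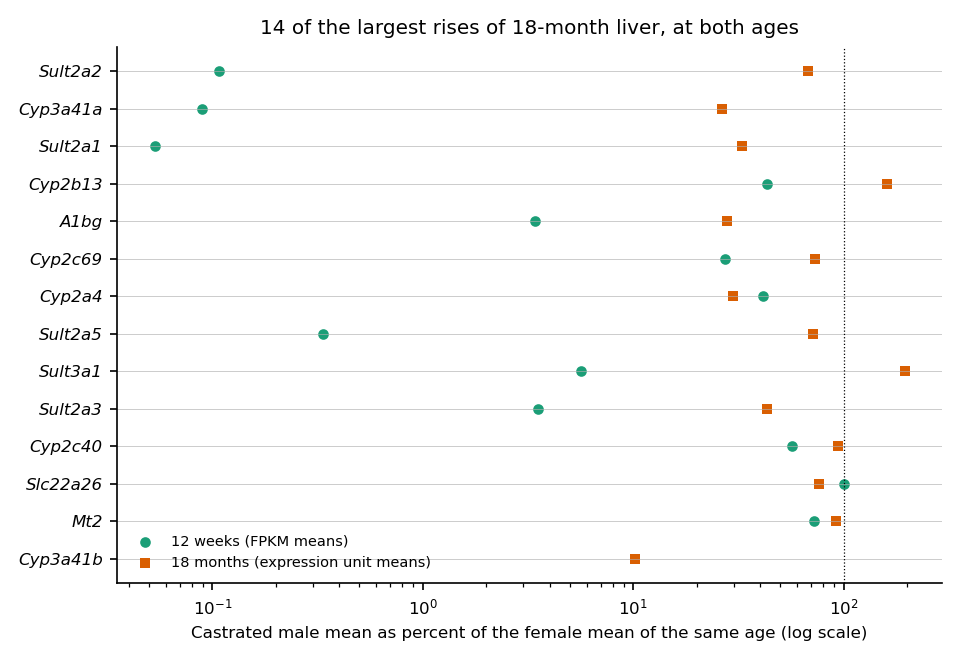
Castrated male mean as a percent of the female mean of the same age (log axis) for 14 of the 15 largest rises of 18-month liver, at 12 weeks (circles, FPKM) and at 18 months (squares). Sult2a2, Sult2a1, Cyp3a41a and Sult2a5 lie under 1% at 12 weeks and above 25% at 18 months. Cyp3a41b has no 12-week point, since it is listed at 0.01 in castrated males there.

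Several falls were large at both ages. Elovl3 had 251 FPKM in sham and 0.513 in castrated males at 12 weeks, Hsd3b5 203 and 4.06, and Serpina1e 6452 and 44.9. C6 had 126 and 7.58. Cidea differed, with 0.0773 FPKM in sham and 0.04 in castrated males at 12 weeks, so it was low in both male groups at that age and high in sham males alone at 18 months. Srebf1 differed as well, with 97.4 and 227 FPKM. Among genes listed for castration at 12 weeks, 5 had the opposite sign with an adjusted p under 0.05. Plin4 had 5.75 and 2.70 FPKM in sham and castrated males, and Slc39a4 25.8 and 12.7, while both rose at 18 months. Myo10, Tbc1d4 and Bmf fell at 18 months and were higher in castrated males at 12 weeks, Bmf, a BH3-only cell death gene, with 1.36 and 2.53 FPKM. The 12-week means also hold values that may be failed estimates, such as Apoe at 0.01 in castrated males, so single values near 0 there are less certain.

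In 18-month kidney, more genes were called, and part of the liver calls recurred. The kidneys may come from the same animals as the livers. Of the 119 liver rises with a kidney mean of at least 1, 52 rose in kidney (10.4% of all genes did) and 13 fell. Of the 115 liver falls, 43 fell in kidney (18.9% of all genes did) and 13 rose. Cyp7b1 fell in both, from 52.5 to 3.6 in kidney, and so did Slco1a1, from 64.8 to 0.044. Cyp4a14 rose in both, from 104 to 648 in kidney. Cyp2a4 went opposite ways, falling in kidney from 687 to 142, and Slc22a26 from 6.51 to 2.11. The Cyp2a4 transcript is 98.3% identical to that of Cyp2a5, so its values depend on how shared reads were assigned. Nox4, a hydrogen peroxide producing oxidase, fell in liver from 14.03 to 4.85 and rose in kidney from 128 to 256. The difference between tissues was not tested.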

How the data were processed

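Polyadenylated RNA of liver was sequenced with paired reads of 150 bases, per the labels' protocols. The submitters' processing notes name HISAT2, SAMtools, Cufflinks and the build mm10, whose versions are not stated in these sources. The authors deposited the 18-month values as 1 mean expression signal per group, with a floor of 0.01 and a unit that is not named, and the 12-week values as FPKM means. The means of the castrated group are whole multiples of 0.01 over 5 and those of the sham males of 0.01 over 3, as 5 and 3 libraries give. Per the file headers, the deposited 18-month comparison table gives the p-value, adjusted p-value and log2 fold of each DESeq2 test run by the authors. Its log2 fold was turned so that castrated over sham males is positive, since 314 of 314 genes over 2-fold then had the sign of the means.

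With group means alone, no test over libraries could be made, and the authors' tests were used, as the design provides for this case. A gene rose or fell when the adjusted p was under 0.05 and the authors' fold and the centred difference of log2(mean + 1) had the same sign. A pseudocount of 1 understates the fold of low genes. The genes, the 42 lists and the tests were chosen with earlier results of these data known, and gene families were picked after their values were seen. Named genes are the 15 largest rises and 15 largest falls with a larger mean of at least 5, plus examples from each list. Mup22, Mup3, Mup10, Mup18, Mup13, Sult2a7, Sult2a8, Sult3a2, Slc22a27, Ehhadh, Alb, Nox4, Myo10, Tbc1d4 and Bmf were chosen after their values were seen. So were Hc and Sult1e1. One of the 15 rises is not reported here and is left out of the plots that name genes. Gene positions and transcripts come from GENCODE for mm10 and promoters from RefSeq. The calculation was checked on simulated data. Python 3.11.15 with pandas 2.3.3 and scipy 1.17.1 was used. Alternatives were other thresholds, minimum means, pseudocounts and no centring.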

Additional observations from a re-analysis of the deposited data

How the results depend on the processing

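No paired analysis was possible because the deposited values are group means without libraries; for the same reason no library was left out and no edgeR or DESeq2 scaling was run. A call needed the same sign in both measures, so by the authors' fold no called gene could change sign. None of the 312 called genes changed sign under any of the alternatives run. Of 661 uncalled genes 116 did under at least 1 of them, as did 11 of 42 list medians, all of these within 0.119 of 0, among them the medians of complement and coagulation (0.01 without centring) and of steroid-converting enzymes. At an unadjusted p under 0.05, 640 of all genes rose and 531 fell, and 98 fell where a 2-fold difference of mean + 1 was also needed. The median of the male-biased list was -4.04 with a pseudocount of 0.1, -2.79 with 5, -2.72 with no minimum mean, -3.95 with a minimum mean of 5 and -4.45 by the authors' log2 fold. That of the female-biased list was 3.26, 1.602, 3.13 (minimum mean of 5) and 3.29 (authors' fold). For T and NK cell markers it was 1.86 with a pseudocount of 0.1, 1.84 with a minimum mean of 5 and 1.95 by the authors' fold. Only 6 of these markers had a mean of at least 1, Cd3g through the castrated mean alone. For pancreas, fat and kidney markers, of which 3 had a mean of at least 1, it was -1.24 (from -1.97) with a pseudocount of 5 and -0.044 with no minimum mean. Differences of low genes depend on the pseudocount: of 973 single genes, 128 moved by more than the implied standard error with 0.1, 198 with 5 and 149 by the authors' fold, the cause being the added constant for the first 2. Without centring, 1 moved. The centre itself was 0.15 with a pseudocount of 0.1 and 0.05 with no minimum mean, against -0.02 for the authors' fold. Depth could not be assessed.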

Other observations

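Where the larger mean was at least 5, 83 genes differed by 2-fold or more on mean + 1 without a call, 64 higher and 19 lower in castrated males. Their median implied standard error was 0.58, against 0.37 for the 168 called genes of this kind. Ugt1a8, a glucuronosyltransferase chosen after its values were seen, had liver means of 0.0833 in sham males and 74.96 in castrated males (DESeq2 adjusted p = 0.14). In females it was at 0.01, the table's floor. In kidney it was listed at 0.01 in sham males and was at 132 in castrated males. It shares its last exons with the other Ugt1a genes, so its reads can be assigned to them as well. Gadd45g, a stress-induced gene, had 5.26 and 46.7 (0.050), while its relative Gadd45b rose from 0.833 to 10.2.

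Called genes were unevenly placed along the genome, given here as counts with no test. On chromosome 4, which holds the Mup and Cyp4a clusters, 6.47% of 696 genes were called, 15 rising and 30 falling, and on chromosome 16 0.896% of 335. Chromosome 7, with the Sult2a, Cyp2a and Cyp2b clusters, had 24 rises and 4 falls among 814 genes. This was 3.44% called, near the 2.85% of all genes. Chromosomes 19, 15 and 12 had 4.67%, 4.44% and 4.38% called. A group of 13 zinc finger genes had 6 members with a mean of at least 1. Near the end of chromosome 4, between 146449023 and 147809788, 5 of these 6 were placed. Of the 6, 4 fell. The 4 were Zfp991, Zfp979, Zfp982 and Zfp992, and the castrated means of Zfp982 and Zfp991 were 3.55 and 0.91.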
